A study of Mus musculus with 48 samples.

Results

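The genes described here are 10 components of antigen presentation by class I molecules of the major histocompatibility complex (MHC): H2-K1, H2-D1, B2m, Tap1, Tap2, Tapbp, Psmb8, Psmb9, Psmb10 and Nlrc5. They were taken by symbol from the authors' normalised table and matched by Ensembl identifier to the raw counts, where all 10 of 10 were found among 49315 genes and all 10 passed the filter on low counts. The measurements were polyA RNA-seq counts of bone marrow-derived macrophages (BMDMs), which are macrophages grown from marrow with macrophage colony-stimulating factor (M-CSF) for 7 days and then rested overnight without it. The 4 genotypes were wild type (WT), LynAKO and LynBKO, in which one splice isoform of the Src-family kinase Lyn is lost, and LynKO, in which both are lost. Cells of 4 mice per genotype (2 male, 2 female) received M-CSF-free medium alone (NT), lipopolysaccharide (LPS) of S. Minnesota R595 at 2 ng/mL, which acts through TLR4, or the small molecule R848 at 20 ng/mL, which acts through TLR7 in mice, each for 2 h. This gave 12 groups of 4 libraries, 48 in all, and every group had passed through the same culture in CMG14-12 conditioned medium. The cells were a culture differentiated outside the animal, so the values describe that culture at a single time.

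Class I molecules display short peptides from proteins made inside the cell to CD8 T cells. The proteasome cuts the proteins, the TAP transporter carries the peptides into the endoplasmic reticulum (ER), and a loading complex places them on a heavy chain paired with beta-2-microglobulin, after which the molecule travels to the surface. In macrophages and other antigen-presenting cells, interferons and NF-kappaB raise the transcription of most of these genes, exchange the catalytic subunits of the proteasome for inducible ones, and induce NLRC5, the transactivator dedicated to class I genes.

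Total counts per library ran from 14974764 to 23321447. Lyn, the targeted gene, had a mean of 177 counts scaled to library size (CPM) in WT NT, 118 in LynAKO, 125 in LynBKO and 67.6 in LynKO, and the LynKO libraries were lower than WT under each treatment (log2 fold change -1.38 with NT, -1.89 with LPS and -1.84 with R848). Counts per gene do not separate the isoforms, so they do not check which one was lost. The 8 macrophage markers summed to 23300 to 44700 CPM over all libraries. The LynBKO NT 4 and LynKO NT 4 libraries held both Y-linked transcripts and Xist (when both were left out, 1 call on the 10 genes changed, given with the LPS against R848 comparison), and the sex labels of LynBKO NT 2 and NT 3 were exchanged against those of the ligand libraries with the same numbers. The Y-linked and Xist transcripts of LynBKO NT 2 and NT 3 followed their own labels. The 3 libraries of WT mouse 1 stood apart from the other WT libraries at a few genes. One of them, H2-DMb1, chosen here after its values were seen, lies in the MHC. It encodes a chain of the class II peptide exchange factor and was at 0.744, 0.391 and 0.367 CPM in its NT, LPS and R848 libraries, against 14.7 to 21.7 in the other 9 WT libraries and 17.5 to 31.4 in the 36 knockout libraries. Values without this mouse are given beside the results in WT and LynKO where they change a call, move a called value or a count by over 1.5 times, or change a difference that is discussed. What set it apart was not tested.

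By the GRCm38 build, 7 of the 10 genes lie in the MHC region of chromosome 17. H2-K1 (chr17:33996017-34000347, minus strand) and H2-D1 (chr17:35262730-35267499, plus strand) encode the classical class I heavy chains. Tap1 (chr17:34187553-34197225, plus strand) and Tap2 (chr17:34203527-34216321, plus strand) encode the subunits of the peptide transporter, Tapbp (chr17:33915899-33929292, plus strand) encodes tapasin, which bridges the transporter and the heavy chain, and Psmb8 (chr17:34197721-34201454, plus strand) and Psmb9 (chr17:34181987-34187764, minus strand) encode inducible proteasome subunits. Outside the MHC lie B2m (chr2:122147686-122153083, plus strand), which encodes beta-2-microglobulin, the inducible subunit gene Psmb10 (chr8:105935735-105938444, minus strand) and Nlrc5 (chr8:94434356-94527272, plus strand). The annotated spans of Tap1 and Psmb9 overlap head to head on opposite strands, and 8 of the 10 genes, all but H2-K1 and H2-D1, overlap at least 1 other annotated gene. The sources used here do not say whether counting used strand, and reads in these overlaps could have been assigned to either gene or to neither. Reads shared by H2-K1, H2-D1 and their near-identical class I relatives are uncertain in the same way.

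The upstream sequences shown are those of the presenting molecules, which are alike between the heavy chains, and the stretch that Tap1 and Psmb9 share, whose transcripts moved apart. They are RefSeq promoter sequences of the GRCm38.p6 build, read on the strand of the gene and 5′ to 3′, for H2-K1 at chr17:34000348-34000478 (minus strand), H2-D1 at chr17:35262903-35263033 (plus strand), B2m at chr2:122147533-122147648 (plus strand) and the stretch between the RefSeq starts of Psmb9 and Tap1 at chr17:34187331-34187555 (plus strand, Tap1 orientation). Capitals mark matches to the motifs searched.
H2-K1: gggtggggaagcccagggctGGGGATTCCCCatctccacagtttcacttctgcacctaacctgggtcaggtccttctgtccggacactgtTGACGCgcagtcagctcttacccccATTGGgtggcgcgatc
H2-D1: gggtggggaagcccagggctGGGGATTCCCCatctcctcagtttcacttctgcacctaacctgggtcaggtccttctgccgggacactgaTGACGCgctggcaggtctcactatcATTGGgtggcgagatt
B2m: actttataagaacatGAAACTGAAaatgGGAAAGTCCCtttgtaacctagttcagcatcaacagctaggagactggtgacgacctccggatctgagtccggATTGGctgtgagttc
Psmb9-Tap1: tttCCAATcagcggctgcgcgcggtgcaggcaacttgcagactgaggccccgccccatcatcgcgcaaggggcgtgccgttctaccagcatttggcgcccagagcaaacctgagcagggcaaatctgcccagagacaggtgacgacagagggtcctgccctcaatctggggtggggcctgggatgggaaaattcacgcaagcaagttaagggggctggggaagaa

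The H2-K1 and H2-D1 stretches had 118 of 131 bases the same when set side by side without gaps, an identity of 90.1%. Both hold a kappa B match, then TGACGC, the core of the X2 box that class I and class II promoters share, then the Y box CCAAT on the reverse strand. In the B2m stretch the capitals are a match to GAAANNGAA, the core of the interferon-stimulated response element (ISRE), a kappa B match and a reverse Y box. The 225 bases between the starts of Psmb9 and Tap1 held 1 match, a CCAAT 8 bases before the Psmb9 start. Matches were searched on both strands of windows from 250 bases before to 50 bases after each start, and 8.56% of the 32851 RefSeq windows held the ISRE-like letters, 8.46% kappa B, 7.4% TGACGC, 37.4% CCAAT and 8.3% TTCNNNGAA, the letters of the gamma-activated site. The kappa B letters of H2-K1 and of H2-D1 match on both strands and at adjacent positions, and form 1 run in capitals. A match describes letters and is not a site shown to be bound. Only these exact letters were searched, so a stretch without a match, as for the ISRE-like letters in H2-K1 and H2-D1, is not shown to lack the element. Windows were found for 8 of the 10 genes. Psmb8 held a gamma-activated site match, Tapbp held Y boxes only, Psmb10 held no match, and Tap2 and Nlrc5 are named only.

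Levels between genes are compared per kilobase of annotated exon, in CPM per kb. In WT NT cells B2m stood highest at 2500 ± 385 (SD, n = 4), followed by H2-D1 at 1250 ± 85.8, H2-K1 at 536 ± 53.8 and Tapbp at 114 ± 10.7. Psmb10 at 46.6 ± 5.91 and Psmb8 at 37.2 ± 4.48 overlapped in their 4 libraries and could not be ordered. Tap2 came next at 23.3 ± 1.84, and Tap1 at 12.1 ± 1.43 overlapped Psmb9 at 11.6 ± 2.3. Nlrc5 was lowest at 3.29 ± 0.503. The heavy chains and their light chain were thus held at levels more than an order of magnitude above the transporter genes before any ligand. After LPS, Tap1 at 62.7 ± 14.5 stood among Psmb8 at 64.3 ± 9.55 and Tap2 at 52.2 ± 11.9, whose libraries overlapped its own. After R848 Tap1 stayed below Tap2, at 13.7 ± 1.93 against 34.4 ± 3.42, without overlap.

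**Figure D1:**
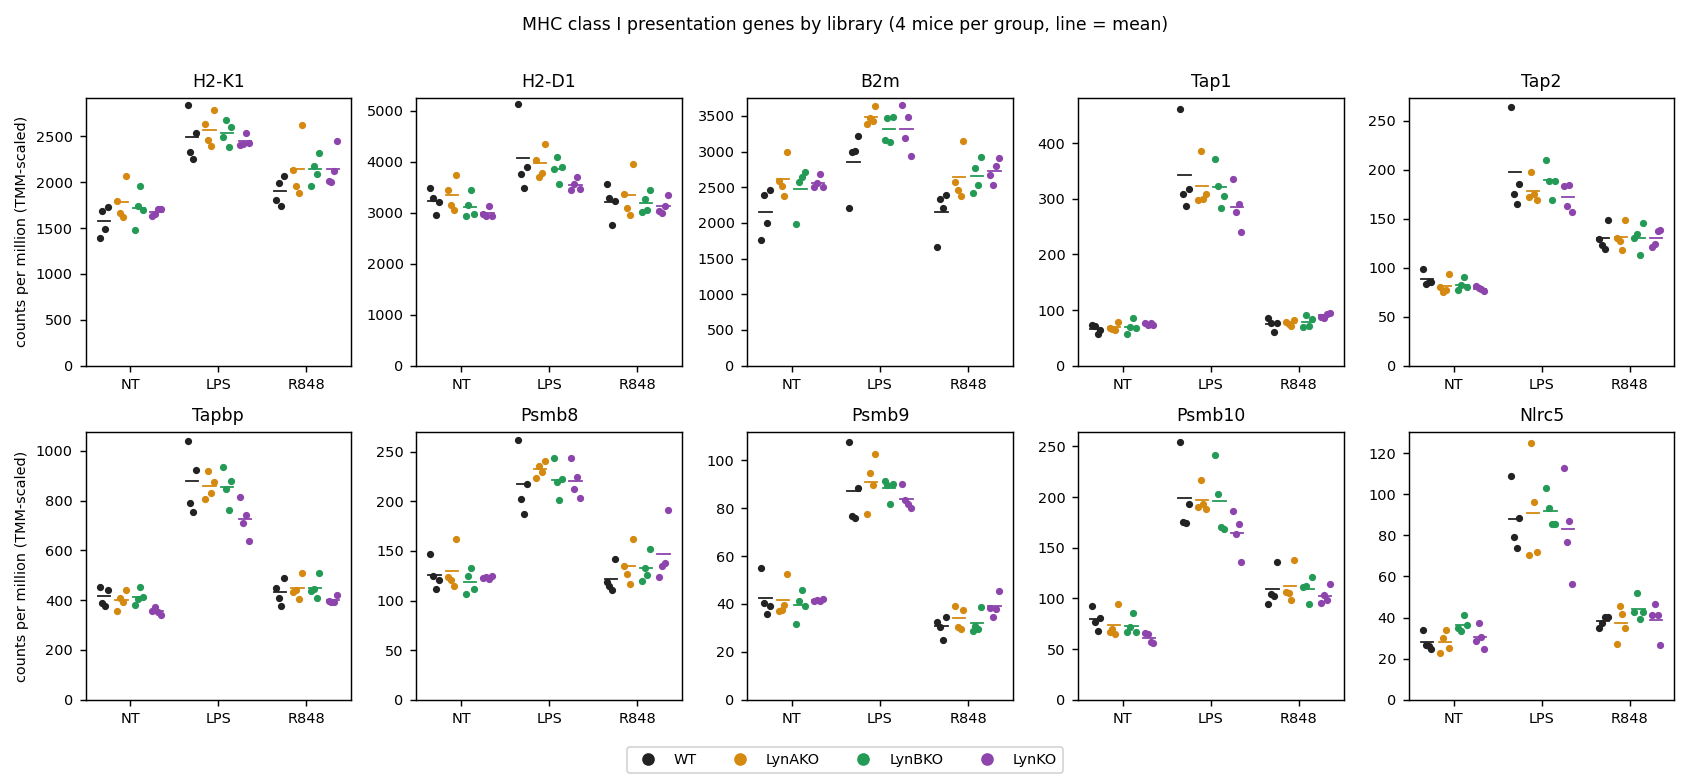
TMM-scaled CPM (y axis, linear, from 0) of the 10 genes in all 48 libraries, by treatment (x axis) and genotype (colour); points are mice and lines are means of 4. Under LPS the points of Tap1, Tap2, Tapbp, Psmb8, Psmb9, Psmb10 and Nlrc5 lie above all NT points of their genotype, whereas B2m in WT overlaps NT.

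LPS raised all 10 genes in WT macrophages within 2 h, by 0.35 (H2-D1) to 2.39 (Tap1) on the log2 scale, and all 10 passed the test at an adjusted p of 0.05 (edgeR's quasi-likelihood test with Benjamini-Hochberg adjustment over 13986 genes). Over all genes tested, 31.5% were higher and 30% lower, and the median change of the members was 1.07 against -0.03 for all genes. The same 10 rose in LynAKO, where 30.4% of all genes were higher and 30.3% lower, in LynBKO (33.9% and 33.4%) and in LynKO (31% and 30.7%). These directions are relative to the middle of all genes after TMM scaling, whose factors were 1.153 to 1.268 in NT and 0.793 to 0.937 in LPS libraries. When library totals alone set the scale, the median of all genes moved to -0.54 to -0.48 over the 4 genotypes, 7 members stayed higher in each genotype (Tap1, Tap2, Tapbp, Psmb8, Psmb9, Psmb10 and Nlrc5), H2-K1 lost its call in each, B2m turned to -0.09 to -0.08 without a call, and H2-D1 turned to -0.17 in WT without a call and to -0.25 to -0.20 with a call in the knockouts.

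Among the presenting molecules, the changes were the smallest of the set. The H2-K1 values were 1395, 1689, 1493 and 1726 CPM in WT NT mice 1 to 4 and 2847, 2328, 2258 and 2533 CPM with LPS, which did not overlap (0.67 ± 0.09 on the log2 scale with its SE, adjusted p by edgeR = 5.45e-06). For H2-D1 the 4 NT libraries gave 3482, 3284, 2947 and 3208 CPM and the LPS libraries 5133, 3761, 3489 and 3900 CPM. Mouse 1 was far above the other 3 with LPS, and the lowest LPS value lay just above the highest NT value. The log2 change of H2-D1 was 0.35 ± 0.11 (adjusted p by edgeR = 0.0106), and 0.25 without WT mouse 1 (adjusted p by edgeR = 0.0252). B2m, the light chain of every class I molecule, went from 1764, 2392, 1996 and 2463 CPM to 2216, 2989, 3015 and 3222 CPM. Every mouse rose, but the groups overlapped, and the LPS value of mouse 1 lay within the NT range. The B2m change was 0.42 ± 0.13 (adjusted p by edgeR = 0.0107), and the call was lost without WT mouse 3 (adjusted p by edgeR = 0.0867). Across the 4 genotypes the log2 change was 0.52 to 0.67 for H2-K1, 0.23 to 0.35 for H2-D1 and 0.36 to 0.42 for B2m. The H2-D1 call in LynAKO (adjusted p by edgeR = 0.0361) was lost without LynAKO mouse 1, 2 or 3, where the adjusted p was 0.0979, 0.0994 and 0.107.

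Among the genes of peptide transport and loading, Tap1 moved most. Its values were 73.03, 71.9, 56.4 and 63.3 CPM in WT NT mice 1 to 4 and 461, 309, 287 and 317 CPM with LPS, a 5.23-fold rise (2.39 ± 0.14 on the log2 scale, adjusted p by edgeR = 7.41e-11). All 4 LPS values were far above all NT values, with mouse 1 the highest. Without that mouse the change was 2.26. Tap2, the other subunit, went from 98.3, 82.9, 85.98 and 84.98 CPM to 264, 175, 165 and 185 CPM (1.18 ± 0.12). Tapbp went from 454, 387, 376 and 443 CPM to 1040, 791, 755 and 922 CPM (1.09 ± 0.11). Neither gene's groups overlapped. Over the genotypes the log2 change was 1.93 to 2.39 for Tap1, 1.12 to 1.19 for Tap2 and 1.02 to 1.10 for Tapbp, with the LynKO value of Tap1 the lowest.

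The 3 inducible catalytic subunits of the proteasome replace the constitutive ones in the immunoproteasome, which favours peptides that suit class I grooves. Psmb10 (subunit beta 2i) went from 92.4, 76.9, 68.1 and 80.2 CPM in WT NT to 254, 176, 174 and 193 CPM with LPS (1.34 ± 0.13). Psmb9 (beta 1i) went from 54.9, 40.5, 35.7 and 39.3 CPM to 108, 76.7, 75.7 and 88.7 CPM (1.05 ± 0.14), and Psmb8 (beta 5i) from 147, 125, 111 and 120.4 CPM to 262, 203, 187 and 218 CPM (0.80 ± 0.11). No LPS group of these 3 genes overlapped its NT group in WT. Over the genotypes the log2 change was 1.34 to 1.43 for Psmb10, 1.00 to 1.16 for Psmb9 and 0.80 to 0.90 for Psmb8.

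Nlrc5, the class I transactivator, had the next largest change after Tap1. The WT NT libraries gave 34.2, 26.9, 25.96 and 24.6 CPM and the LPS libraries 109, 79.4, 73.8 and 88.6 CPM, a 3.17-fold rise (1.66 ± 0.12 on the log2 scale, adjusted p by edgeR = 1.56e-09). The LPS values spread more between mice in LynAKO (70.5, 125, 96.3 and 71.9 CPM) and LynKO (113, 76.7, 87.1 and 56.4 CPM) than in LynBKO (103, 93.3, 85.3 and 85.7 CPM), and in each genotype all 4 lay above all 4 NT values. Without WT mouse 1 all 10 LPS calls in WT held. In its LPS library that mouse had the highest value of the 4 WT mice for 9 of the 10 genes and the lowest for the other, B2m.

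Markers of other cells also moved with the ligands. In WT the 8 dendritic cell markers summed to 0.697 to 1.3 CPM with NT, 8.44 to 10.5 with LPS and 6.55 to 12.3 with R848, the 8 neutrophil markers to 3.65 to 8.88, 12.7 to 20.4 and 10.9 to 28, and the 6 stromal markers to 0.649 to 4.94, 9.12 to 23.7 and 4.54 to 10.3. Of these lists, 2 of 8 dendritic cell markers (Clec9a and Cd209a), 3 of 8 neutrophil markers (Ly6g, Mpo and Elane) and 2 of 6 stromal markers (Dcn and Pdgfra) were under 1 CPM in every library, and the others make up the sums. T and NK cell markers summed to at most 0.621 CPM, B cell markers to at most 5.02 CPM and erythroid markers to at most 0.138 CPM. The part of other cells in the changes was not tested. In bulk libraries, fewer cells of a type and less RNA per cell cannot be told apart.

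R848 for 2 h moved fewer of the 10 genes, and by less. In WT, 4 rose (H2-K1, Tap2, Psmb10 and Nlrc5) and 1 fell (Psmb9), while 30% of all genes rose and 26.7% fell. In LynAKO 3 rose (H2-K1, Tap2 and Psmb10) against 29% of all genes higher and 26.9% lower. In LynBKO the same 5 as in WT passed, against 31.3% higher and 32.2% lower, and in LynKO 4 rose (H2-K1, Tap1, Tap2 and Psmb10), against 28.4% higher and 27% lower. These shares are near the members' own, and the members' median change in WT was 0.15 against -0.03 for all genes. With library totals alone the median of all genes moved to -0.40 to -0.32, and the members then counted 0 higher and 5 lower in WT, 1 and 4 in LynAKO, 2 and 5 in LynBKO, and 2 and 3 in LynKO.

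Tap2 had the largest R848 change of the 10 in WT: its NT values of 98.3, 82.9, 85.98 and 84.98 CPM became 129.5, 123, 119.5 and 149 CPM, without overlap (0.59 ± 0.12, adjusted p by edgeR = 0.000459). Across the genotypes its change was 0.59 to 0.71, and with library totals alone it kept its call in the 3 knockouts but not in WT (0.23). Tap1, its partner in the transporter, went from 73.03, 71.9, 56.4 and 63.3 to 85.5, 77.5, 60.4 and 76.8 CPM in WT. These overlapped, and the change of 0.21 ± 0.14 did not pass (adjusted p by edgeR = 0.205), although it did with the mouse as a block (0.20, adjusted p by edgeR = 0.0405). The LynKO call of Tap1 (0.26, adjusted p by edgeR = 0.0204) was lost without LynKO mouse 2 or mouse 3, where the adjusted p was 0.0557 and 0.0965, and turned to -0.04 with library totals alone.

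Psmb9 was the only one of the 10 called lower with R848. Its WT values were 54.9, 40.5, 35.7 and 39.3 CPM with NT and 32.7, 30.5, 25.1 and 34.5 CPM with R848, without overlap (-0.44 ± 0.14, adjusted p by edgeR = 0.0125; -0.36 and adjusted p 0.0175 without WT mouse 1). In LynBKO it fell by 0.31 (adjusted p by edgeR = 0.0162) and lost that call without LynBKO mouse 2 or mouse 3, with adjusted p of 0.104 and 0.182. In LynAKO the change of -0.27 passed only with the mouse as a block (-0.26, adjusted p by edgeR = 0.0201), with no filter on low counts (-0.30), without LynAKO mouse 1 (-0.39) or with library totals alone (-0.62). In LynKO it was -0.10 ± 0.08 (adjusted p by edgeR = 0.299), and it passed without LynKO mouse 4 (-0.18) and with library totals alone (-0.40). Psmb10, by contrast, rose from 92.4, 76.9, 68.1 and 80.2 CPM to 94.9, 105, 103 and 136 CPM in WT (0.49 ± 0.13, adjusted p by edgeR = 0.00373) and by 0.49 to 0.74 over the genotypes, a call that library totals alone removed in WT and LynAKO. Psmb8 had a WT change of -0.03 ± 0.11 and did not pass in any genotype, and its library-total value in WT was -0.39 with a call.

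H2-K1 rose with R848 by 0.28 to 0.34 over the genotypes, from 1395 to 1726 CPM to 1745 to 2063 CPM in WT without overlap, and its LynAKO call was lost without LynAKO mouse 1, 2 or 3 (adjusted p 0.0902, 0.0927 and 0.0639); with library totals alone its change was -0.07 to 0.04 with no call. H2-D1 (0.01 to 0.05) and B2m (0.02 to 0.10) passed in no genotype, and with library totals alone they turned to -0.34 to -0.25 and -0.34 to -0.23 with a call in each. Tapbp was 0.08 to 0.17, passing with the mouse as a block in LynAKO (0.17, adjusted p by edgeR = 0.0127) and LynKO (0.15, adjusted p by edgeR = 0.0457). Nlrc5 rose in WT from 34.2, 26.9, 25.96 and 24.6 CPM to 34.8, 37.1, 40.3 and 40.3 CPM (0.48 ± 0.12, adjusted p by edgeR = 0.00294), and in LynBKO by 0.27, a call lost without LynBKO mouse 2 (adjusted p by edgeR = 0.25) and turned to -0.08 by library totals alone. With the mouse as a block Nlrc5 also passed in LynAKO (0.41, adjusted p by edgeR = 0.000579) and LynKO (0.33, adjusted p by edgeR = 0.0195). Left out 1 at a time, LynAKO mouse 1 (adjusted p 0.0482) and LynKO mouse 4 (0.014) brought Nlrc5 past the threshold, and LynBKO mouse 3 brought Tap1 (0.018), Tapbp (0.0219) and Psmb8 (0.0393) past it. Without WT mouse 1 all 5 R848 calls in WT held, with Psmb10 at 0.61 and Nlrc5 at 0.61.

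**Figure D2:**
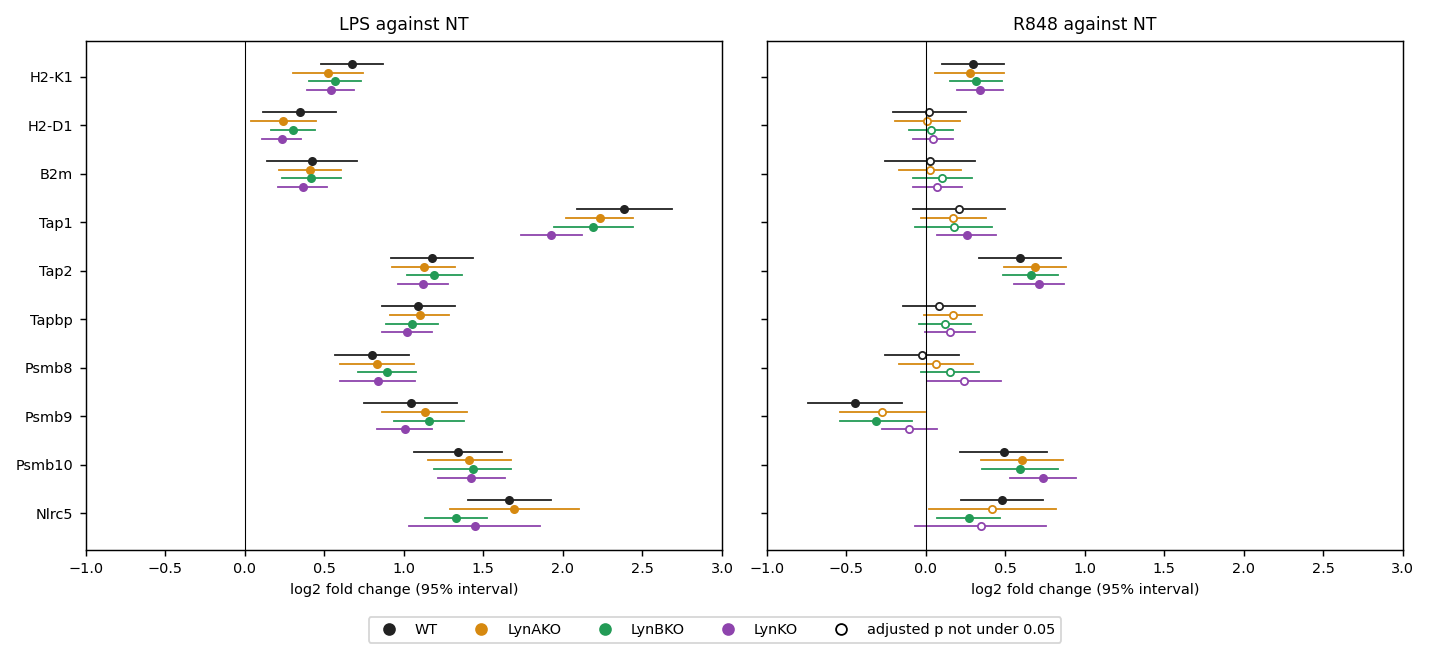
Log2 fold change with its 95% interval (x axis) of each of the 10 genes (y axis) for LPS against NT (left) and R848 against NT (right), by genotype (colour); open points did not pass an adjusted p of 0.05. All LPS points are filled and to the right of 0, while R848 points lie between -0.44 and 0.74; both panels share the NT libraries.

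Compared directly, LPS libraries were higher than R848 libraries at all 10 genes in WT, where 10.9% of all genes were higher and 10% lower. In LynAKO 8 of 10 were higher (9.7% and 7.92% of all genes), in LynBKO 10 of 10 (14.2% and 12.3%) and in LynKO 9 of 10 (9.73% and 6.13%), and none was lower. The widest gaps in WT were at Tap1 (2.18 ± 0.14), Psmb9 (1.49 ± 0.14), Nlrc5 (1.19 ± 0.12) and Tapbp (1.01 ± 0.11). Of these, Psmb9 had ranges of 75.7 to 108 CPM with LPS and 25.1 to 34.5 CPM with R848, on either side of its NT range of 35.7 to 54.9 CPM. The narrowest were at H2-D1 (0.32 ± 0.11, adjusted p by edgeR = 0.042), H2-K1 (0.38 ± 0.09, 0.00709) and B2m (0.40 ± 0.13, 0.0419). The WT call of H2-D1 was lost without any one of the mice (adjusted p 0.0512 to 0.103) and that of B2m without WT mouse 2, 3 or 4 (0.0919 to 0.13). With library totals alone the calls lost were H2-K1, H2-D1 and B2m in WT, B2m in LynAKO (adjusted p by edgeR = 0.059), H2-K1, H2-D1 and B2m in LynBKO (0.343, 0.146 and 0.165), and H2-D1 and B2m in LynKO (0.638 and 0.105), which left 7 of 10 higher in each genotype. In LynAKO the calls missed were H2-K1 (0.25, adjusted p by edgeR = 0.121) and H2-D1 (0.23, 0.11), and with the mouse as a block both passed, at 0.000737 and 0.00067. The call missed in LynKO was H2-K1 (0.20, adjusted p by edgeR = 0.0656, and 0.0113 with the block). Calls in the knockouts that were lost without 1 mouse were B2m in LynAKO without mouse 2 or 3 (adjusted p 0.0756 and 0.0666), H2-K1 (0.131) and H2-D1 (0.0557) in LynBKO without mouse 2, and B2m in LynBKO without mouse 2 or 3 (0.0683 and 0.0598). In LynKO, H2-D1 was lost without mouse 1, 2 or 3 (0.207 to 0.254) and B2m likewise (0.0839 to 0.167). H2-D1 in LynKO was also lost when LynBKO NT 4 and LynKO NT 4 were left out together (0.0514). Without mouse 4 the missed calls were made: in LynAKO, H2-K1 (0.0034) and H2-D1 (0.00773), and in LynKO, H2-K1 (0.000863). The doses of the ligands differ, so these gaps compare the conditions as used.

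Because Psmb8, Psmb9 and Psmb10 take the places of Psmb5, Psmb6 and Psmb7, the share of the inducible gene in each pair was computed per kb of exon, a ratio that scaling does not touch. Psmb9 made up 16.8, 14.6, 13.04 and 13.2% of its pair in WT NT mice 1 to 4, 16.7, 15.04, 15.1 and 15.97% with LPS and 8.79, 8.30, 6.77 and 7.70% with R848. The R848 values lay below all NT values, with means of 14.4% ± 1.75 (SD, n = 4) for NT and 7.89% ± 0.867 for R848 (two-sided exact permutation test, p = 0.0286, the smallest that 4 against 4 allows, Benjamini-Hochberg adjusted p = 0.049 over 24 such tests). With LPS the mean was 15.7% ± 0.799 and overlapped NT (exact permutation p = 0.229), while Psmb6 itself rose by 0.90 on the log2 scale, as did Psmb7 (0.66) and Psmb5 (0.35, which turned to -0.17 with no call under library totals alone). The mean Psmb9 share without WT mouse 1 was 13.6% with NT, 15.4% with LPS and 7.59% with R848 (n = 3). Psmb6 rose with R848 too, by 0.54 (WT), 0.59 (LynAKO), 0.63 (LynBKO) and 0.71 (LynKO), so the lower share holds a rise of Psmb6, and in LynKO and LynAKO the fall of Psmb9 itself did not pass. The R848 share of Psmb9 was likewise below NT without overlap in LynAKO (14.1% ± 1.04 to 8.35% ± 1.03), LynBKO (15.6% ± 1.68 to 8.80% ± 0.617) and LynKO (16.3% ± 0.872 to 10.1% ± 0.798). The share of Psmb8 in its pair was 26.2% ± 1.42 in WT NT, 32.6% ± 1.36 with LPS and 22.4% ± 1.11 with R848, both ligand groups apart from NT in WT and LynAKO (exact permutation p = 0.0286 each), while in LynBKO and LynKO the R848 groups overlapped NT (exact permutation p = 0.0857 and 0.114). Psmb8 itself passed with R848 in no genotype, while Psmb5 rose by 0.28 in WT and 0.30 in LynAKO, which turned to -0.09 and -0.05 with no call under library totals alone. Psmb10 held 65.6% ± 4.60 of its pair with NT, 75.3% ± 3.09 with LPS and 66.9% ± 3.72 with R848, with the LPS group above NT without overlap in all 4 genotypes and the R848 groups overlapping it. These tests were added after the values were seen, and the share of a pair per kb depends on the annotated exon lengths. They treat the libraries as unpaired, although libraries of the same number within a genotype were taken to come from the same mouse.

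**Figure D3:**
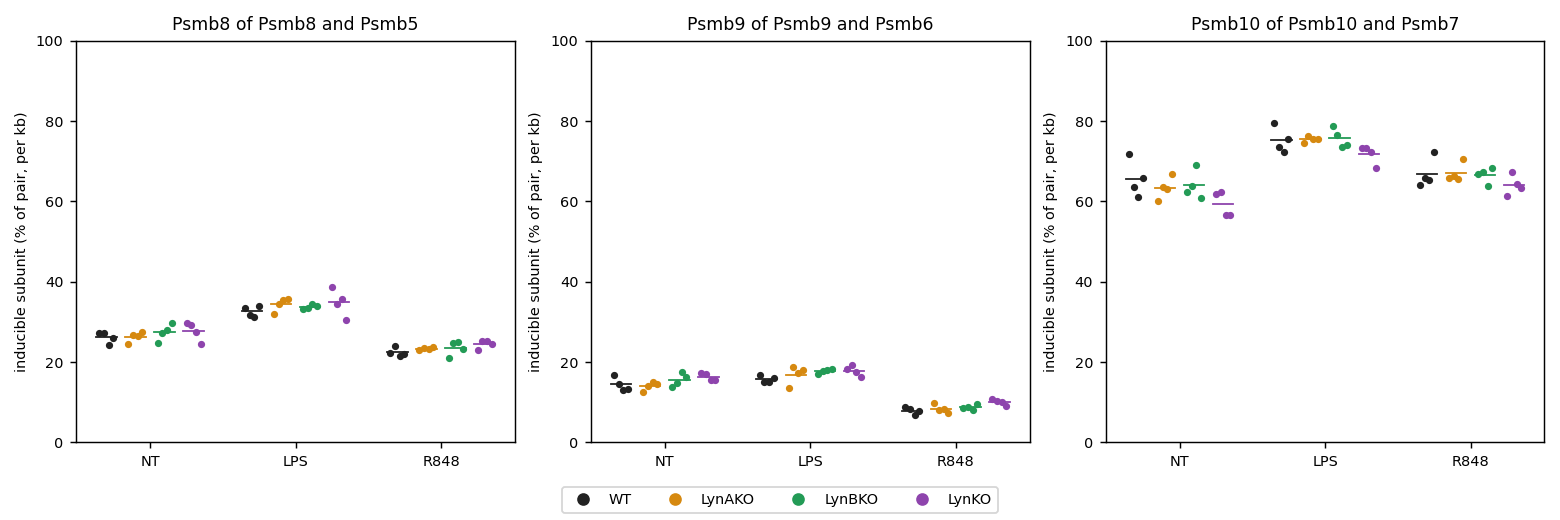
Share of the inducible subunit in its pair with the constitutive one (y axis, percent of CPM per kb, from 0 to 100) by treatment (x axis) and genotype (colour), 1 point per mouse and lines at the means of 4. In the middle panel the R848 points of every genotype lie below its NT points.

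Tap1 and Psmb9 start close to each other and read in opposite directions, yet their changes differed. The ratio of Tap1 to Psmb9 CPM was 1.57 ± 0.183 (SD, n = 4) in WT NT, 3.92 ± 0.305 with LPS and 2.45 ± 0.174 with R848, and no library of one treatment overlapped another treatment in WT. The means without WT mouse 1 were 1.66, 3.8 and 2.39. In LynKO they were 1.80, 3.40 and 2.32. The ratio does not depend on scaling. It was not tested further, and reads in the overlap of both genes could affect it.

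Some factors known to act on class I promoters moved differently with each ligand. Of 19 transactivators, LPS raised 12 and lowered 3 in WT, and R848 raised 8 and lowered 6. Of all genes, LPS raised 31.5% and lowered 30%, and R848 raised 30% and lowered 26.7%. The median changes of the 19 were 0.86 and -0.05, against -0.03 for all genes under either ligand. With library totals alone the counts of the 19 became 9 and 8 for LPS and 7 and 11 for R848, and without WT mouse 1 they were 12 and 5 for LPS and 8 and 6 for R848. Irf1, an interferon regulatory factor that binds the ISRE of class I genes, rose by 3.75 ± 0.12 with LPS, from 56.8 to 66.2 CPM to 697 to 899 CPM, and by 1.59 ± 0.11 with R848, to 153 to 204 CPM. Stat2 and Irf9, which carry interferon signals to the ISRE, went up with LPS and down with R848: Stat2 was 2.39 ± 0.14 with LPS and -0.58 ± 0.14 with R848, Irf9 was 1.07 ± 0.08 and -0.20 ± 0.08, both called under each ligand. Irf7, which amplifies type I interferon, was 2.07 ± 0.24 and -0.46 ± 0.24 (adjusted p by edgeR = 0.106 for R848). Tested directly, LPS exceeded R848 in WT at Irf1 (2.16), Stat2 (2.97), Irf7 (2.53) and Irf9 (1.27).

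The NF-kappaB genes Nfkb1 and Rela rose with both ligands, by 3.23 and 1.62 with LPS and by 2.85 and 1.37 with R848. Irf8, a myeloid regulator, fell by 0.61 with LPS and by 1.54 with R848. Irf2, which competes with Irf1 for its sites, was -0.19 with LPS (adjusted p by edgeR = 0.147) and fell by 0.88 with R848. The RFX complex that NLRC5 joins on class I promoters did not move as 1 unit: Rfx5 rose by 0.86 and 1.24 with LPS and R848, whereas Rfxank fell by 0.92 and 0.58 and Rfxap by 0.56 and 0.39. Ifnb1, which encodes interferon beta, had no count in the WT NT libraries, 0.465 to 1.57 CPM with LPS and 0 to 0.145 CPM with R848, so no fold is given for it. The interferon receptor genes Ifnar1 (1.97 and 1.69) and Ifnar2 (1.37 and 0.99) rose with both ligands. Of the 6 interferon genes listed, 5 were tested and all 5 were called higher with each ligand in WT (4 with library totals alone, and 5 with LPS and 4 with R848 without WT mouse 1). Of all genes, 31.5% were higher with LPS and 30% with R848. A gene with no NT count, such as Ifnb1, can only move upward, so a call on it says nothing of direction.

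**Figure D4:**
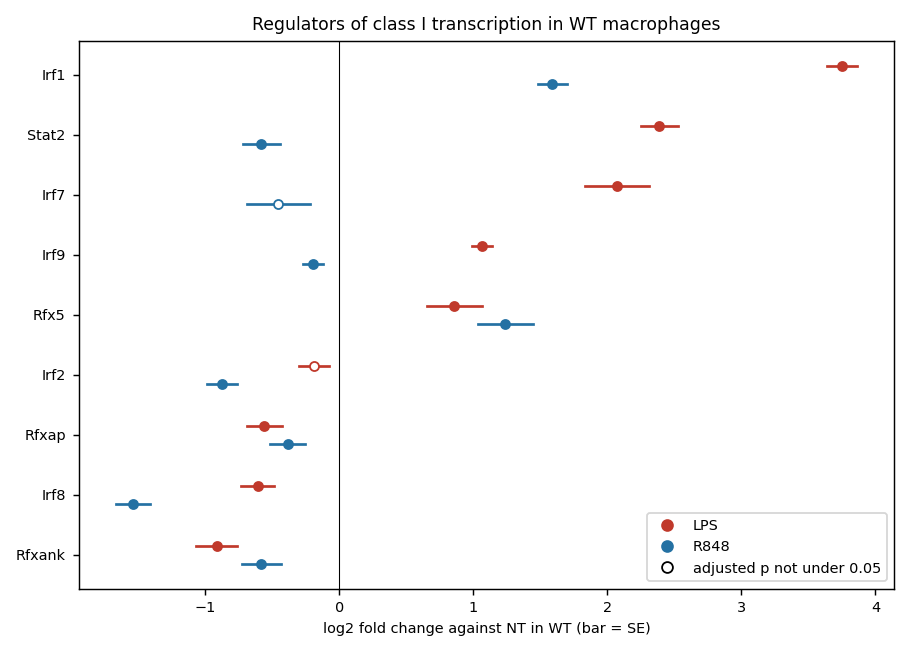
Log2 fold change against NT in WT (x axis, bars are SE) of 9 regulators of class I transcription (y axis) for LPS (red) and R848 (blue), open where the adjusted p was not under 0.05. Stat2 and Irf9 lie on opposite sides of 0 under the 2 ligands, and Irf1 lies to the right under both.

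Other genes of the pathway are given by list. Of 19 further class I or class I-like genes, 15 passed the filter, and in WT LPS raised 10 and lowered 3 while R848 raised 7 and lowered 4 (with library totals alone 7 and 3, then 6 and 6). Over all genes the shares were 31.5% higher and 30% lower with LPS, and 30% and 26.7% with R848. The median changes of the list were 0.78 and -0.18. When WT mouse 1 was left out, LPS raised 11 and lowered 3 and R848 raised 7 and lowered 3, with medians of 0.97 and 0.14, so the sign of the R848 median rests on that mouse. The largest LPS changes were H2-M2 (4.54 ± 0.39), H2-Q6 (3.72 ± 0.65), H2-Q7 (3.66 ± 0.59) and H2-Q5 (2.82 ± 0.51), and the same 4 led with R848 at 4.41, 3.37, 2.88 and 2.39. The H2-Q genes encode nonclassical heavy chains of near-identical sequence, so reads may have been split among them. Without WT mouse 1, which had an H2-Q6 value of 0 with NT, the LPS changes were 3.64 for H2-Q6, 3.52 for H2-Q7 and 2.66 for H2-Q5.

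Of 10 ER loading factors and chaperones, LPS raised 4 and R848 raised 6 in WT, and none fell (with library totals alone 3 higher and 7 lower, then 2 and 4, and without WT mouse 1, 4 and 7 higher and none lower). For all genes, 31.5% were higher with LPS and 30% with R848. Their median changes were 0.15 and 0.32. The 4 with LPS were Hspa5 (1.15 ± 0.10), the ER chaperone BiP, Lnpep (1.06 ± 0.14), an aminopeptidase of endosomal vesicles, Tapbpl (0.98 ± 0.13), a peptide editor related to tapasin, and Canx (0.24 ± 0.07, which turned to -0.27 with a call under library totals alone). With R848, Lnpep led at 1.51, followed by Hspa5 (0.84), Tapbpl (0.53) and Erap1 (0.48), which trims peptides in the ER.

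Of the 14 alpha and constitutive beta genes of the 20S proteasome core, 12 rose with LPS in WT and 8 with R848, and 1 fell with R848 (Psma1, named after its value was seen). The medians were 0.39 and 0.24. The counts without WT mouse 1 were 12 and 8 higher and none lower. With library totals alone the counts were 3 higher and 4 lower with LPS and 1 and 5 with R848. Psma6 led under both ligands at 1.48 ± 0.08 and 1.20 ± 0.08. Among 9 activators and assembly factors, Psme2 (1.95 ± 0.11 and 1.35 ± 0.11) and Psme1 (0.82 ± 0.09 and 0.30 ± 0.09), the subunits of the interferon-inducible PA28 cap, rose with both ligands, although Psme1 turned to -0.06 with R848 under library totals alone. In all, 5 of the 9 rose and 2 fell with LPS, and 4 rose and 1 fell with R848 (library totals alone: 2 and 6, then 2 and 5). The medians of the 9 were 0.24 and 0.0045. Leaving out WT mouse 1, 5 rose and 1 fell with LPS and 4 rose and 1 fell with R848, and the medians were 0.29 and 0.08. Of 7 cytosolic peptidases tested, which trim or destroy peptides before transport, 5 rose and none fell with each ligand in WT (library totals alone: 1 and 2, then 2 and 2, and without WT mouse 1, 5 and 4 higher and none lower), with medians of 0.37 and 0.38, led by Blmh with LPS (0.75) and Tpp2 with R848 (0.98). Beside each of these lists, LPS raised 31.5% and lowered 30% of all genes in WT, and R848 raised 30% and lowered 26.7%.

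None of the 10 genes was called in the 18 comparisons between genotypes or the 6 comparisons of responses by edgeR. Of these 240 tests, edgeR called 0 at an adjusted p of 0.05, 25 had an unadjusted p under 0.05, the smallest adjusted p was 0.0532, and DESeq2 called 2. With no filter on low counts edgeR called 7: B2m higher in LynAKO (adjusted p 0.00512) and in LynKO (0.00198) with NT and in LynKO with R848 (0.00451), Nlrc5 higher in LynBKO (0.00509) and Psmb10 lower in LynKO (0.000217) with NT, and with NT Nlrc5 lower in LynAKO than in LynBKO (0.0172) and Psmb10 higher in LynAKO than in LynKO (0.0311). Sex as a covariate called B2m in LynKO with R848 (adjusted p by edgeR = 0.0421), and a model of all 48 libraries called it too (0.0354) with Tapbp lower in LynKO with LPS (0.0418). Library totals alone called B2m higher in LynKO with LPS (adjusted p by edgeR = 0.0396) and with R848 (0.0168), and Tap1 (0.0428) and Psmb9 (0.0393) higher with R848. In LynKO against WT, 9.9% of all genes were called with NT, 8.49% with LPS and 5.93% with R848, so a count of 0 among 10 members is near those shares. DESeq2 called more genes than edgeR in LynAKO (12, 10 and 5 against 4, 3 and 1 with NT, LPS and R848) and in LynBKO (115 and 28 against 9 and 5 with NT and LPS), and 350 against 88 in LynBKO against LynKO with LPS. LynAKO against WT called 0.0286%, 0.0215% and 0.00715% of all genes in the same order, LynBKO against WT 0.0644%, 0.0358% and 0% (0 genes with R848 by edgeR, where 636 had an unadjusted p under 0.05 and DESeq2 called 15), LynAKO against LynKO 3.39%, 1.09% and 0.858%, and LynBKO against LynKO 3.57%, 0.629% and 1.72%. LynAKO against LynBKO called 0%, 0% and 0% by edgeR, where 1173, 353 and 445 genes had an unadjusted p under 0.05 and DESeq2 called 1, 0 and 0. The difference of the LPS response from that of WT called 0% of all genes for LynAKO, 0% for LynBKO and 0.1% for LynKO, and that of the R848 response 0%, 0% and 0.193%. Where edgeR called no response, the genes at an unadjusted p under 0.05 numbered 366 (LynAKO) and 458 (LynBKO) for LPS, where DESeq2 called 0 and 0, and 328 and 430 for R848, where it called 2 and 1. For LynKO, edgeR called 14 LPS and 27 R848 responses and DESeq2 64 and 78.

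The 95% intervals limit how large a missed difference could be for 1 gene in 1 comparison at a time, under TMM scaling. They were not adjusted over the 240 tests. For LynKO against WT the 30 log2 changes of the members ran from -0.37 to 0.35 and their 95% intervals from -0.62 to 0.61. For LynAKO against WT the intervals ran from -0.37 to 0.52, for LynBKO against WT from -0.38 to 0.66, for the pairs of knockouts from -0.64 to 0.52, for the LPS responses from -0.82 to 0.54 and for the R848 responses from -0.69 to 0.75. Each of the 240 intervals lay within 1 log2 unit of 0. The comparisons with WT share the WT libraries under a treatment.

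The nearest to a call was Psmb10 in LynKO NT cells: its values were 65.97, 64.4, 57.1 and 56.3 CPM in LynKO and 92.4, 76.9, 68.1 and 80.2 CPM in WT, without overlap (-0.37 ± 0.12, adjusted p by edgeR = 0.0532, and 0.0262 by DESeq2). Without WT mouse 1 the change was -0.29 (adjusted p by edgeR = 0.198). Without WT mouse 3 it was -0.44 (adjusted p by edgeR = 0.0246). Under the ligands the LynKO difference of Psmb10 was -0.26 (LPS) and -0.09 (R848), and -0.12 and -0.15 without WT mouse 1. B2m with R848 was next: 2675, 2527, 2799 and 2914 CPM in LynKO and 1663, 2330, 2213 and 2395 CPM in WT, with mouse 1 the lowest of the WT values (0.34 ± 0.11, adjusted p by edgeR = 0.0661, and 0.0447 by DESeq2). Without WT mouse 1 it was 0.24 (adjusted p by edgeR = 0.175). Side by side, B2m in LynAKO, LynBKO and LynKO differed from WT by 0.29, 0.20 and 0.26 with NT, by 0.29, 0.21 and 0.23 with LPS, and by 0.30, 0.31 and 0.34 with R848, with the same WT libraries on the other side. Leaving out WT mouse 1 gave 0.20, 0.12 and 0.18 with NT, 0.18, 0.11 and 0.13 with LPS, and 0.19, 0.21 and 0.24 with R848. With the replicate number as a block, the B2m difference of LynKO with R848 passed (0.35, adjusted p by edgeR = 0.00896). Across genotypes a number marks different mice, but these libraries deviated together by number (r = 0.15 to 0.313). In both genotypes numbers 1 and 2 were male and 3 and 4 female, so the block also carries sex. Tapbp in LynKO was at 815, 709, 744 and 636 CPM with LPS against 1040, 791, 755 and 922 CPM in WT, which overlapped (-0.25 ± 0.09, adjusted p by edgeR = 0.1; -0.16 without WT mouse 1). Without WT mouse 3, Tapbp passed with LPS (-0.32, adjusted p 0.0488) and with NT (-0.26, adjusted p 0.0472).

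Nlrc5 was 0.39 ± 0.13 in LynBKO against WT with NT (34.8, 33.5, 41.4 and 36.6 CPM against 34.2, 26.9, 25.96 and 24.6 CPM, adjusted p by edgeR = 0.253), the largest positive difference among these tests. Without WT mouse 1, the highest of the WT values, the difference was 0.50 and did not pass either. The heavy chains had LynKO differences of 0.10, -0.004 and 0.18 for H2-K1 and -0.10, -0.18 and -0.04 for H2-D1 with NT, LPS and R848. The values without WT mouse 1 were 0.05, 0.06 and 0.15 for H2-K1 and -0.06, -0.05 and 0.02 for H2-D1. Of the responses, the LPS response of Tap1 in LynKO minus that in WT was -0.44 ± 0.17 (95% interval -0.79 to -0.09, adjusted p by edgeR = 0.461), with the LynKO LPS values at 336, 276, 291 and 241 CPM. That difference of responses without WT mouse 1 was -0.31 (adjusted p by edgeR = 0.874), and the LPS difference of Tap1 in LynKO from WT was -0.07 in place of -0.24. For Psmb9 the R848 difference of LynKO from WT was 0.35 ± 0.13 without overlap (38.3, 34.7, 38.1 and 45.3 against 32.7, 30.5, 25.1 and 34.5 CPM, adjusted p by edgeR = 0.107, and 0.38 without WT mouse 1). With the replicate number as a block this passed (0.35, adjusted p by edgeR = 0.0141), as did Psmb8 (0.26, adjusted p by edgeR = 0.0169). Neither Psmb9 nor Psmb8 passed there with sex as a covariate. The macrophage marker sum stood at 23600 to 26500 CPM in LynKO NT and 36500 to 44700 CPM in WT NT, 24300 to 28400 against 35700 to 43100 with LPS, and 23300 to 28700 against 36200 to 40100 with R848. Its part in these differences was not tested.

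**Figure D5:**
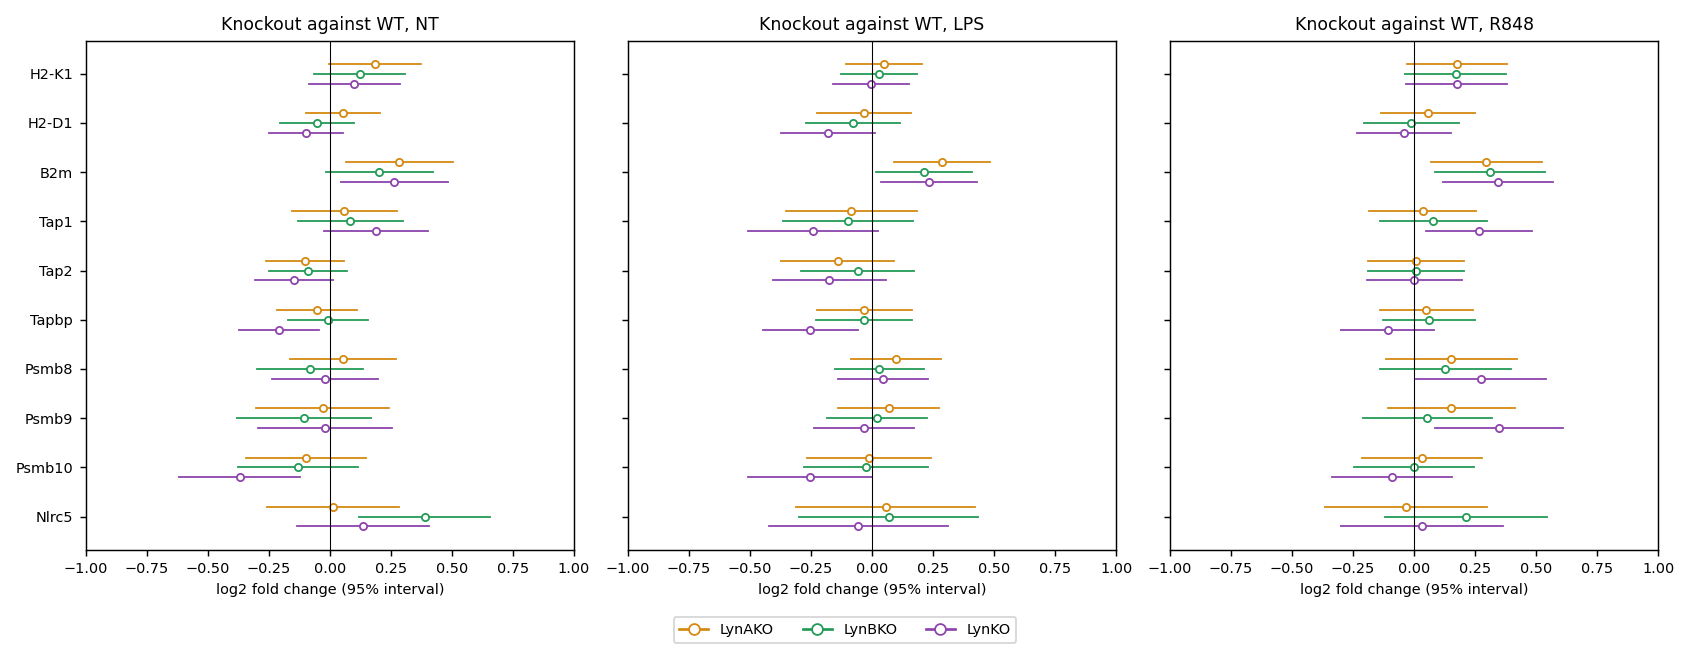
Log2 fold change against WT with its 95% interval (x axis) of the 10 genes (y axis) in LynAKO, LynBKO and LynKO (colour) for NT, LPS and R848 (panels left to right). All points are open because none passed an adjusted p of 0.05, and every interval lies between -0.62 and 0.66.

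Pathway genes outside the set did differ in LynKO. H2-Q6 was higher than in WT by 2.22 ± 0.45 with NT, 1.56 ± 0.32 with LPS and 1.58 ± 0.36 with R848, and by 1.84, 1.24 and 1.24 without WT mouse 1, all called. H2-Q5 was higher by 1.32, 0.82 and 0.97, and H2-Q7 by 1.00 with LPS and 1.28 with R848. With NT the H2-Q6 values spanned 0 (WT mouse 1) to 5.23 CPM in WT, 8.03 to 13.3 in LynAKO, 5.89 to 17.7 in LynBKO and 11.6 to 20.7 in LynKO. All 12 knockout libraries thus lay above the WT range, but H2-Q6 was not called in LynAKO or LynBKO with NT. There, 0 of the 15 further class I genes tested were called. The share of all genes with such a separation was not computed. Of the same 15 genes, H2-Q5, H2-Q6 and H2-Q7 included, 3, 4 and 4 were called higher and 1, 1 and 0 lower in LynKO with NT, LPS and R848, where 9.9%, 8.49% and 5.93% of all genes were called. The counts without WT mouse 1 were 4, 4 and 3 higher and 0, 1 and 0 lower. With NT, leaving out WT mouse 1 removed the call of H2-Q4 (0.40 to 0.29, adjusted p by edgeR = 0.186) and added that of H2-Q7 (1.47 to 1.09, adjusted p by edgeR = 0.0498).

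The ER chaperones went the other way, with 5, 3 and 5 of 10 lower in LynKO than in WT with NT, LPS and R848, and 0, 1 and 0 higher. These counts were 5, 3 and 4 lower and none higher without WT mouse 1. Hspa5 differed by -0.49, -0.44 and -0.53, Hsp90b1 (the chaperone GRP94) by -0.45, -0.45 and -0.48, and Calr (calreticulin, of the loading complex) by -0.42, -0.40 and -0.33. Each of these 9 calls held without WT mouse 1. Irf1 was -0.29, -0.42 and -0.37, called each time and also without that mouse. None of the 14 proteasome core genes and none of the 9 activators and assembly factors was called in LynKO against WT under any treatment, beside 9.9%, 8.49% and 5.93% of all genes.

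Over all 48 libraries the genes most like Nlrc5 in log2 CPM were Eif2ak2 (Pearson r = 0.975), Fam53c (0.971), Rnf213 (0.966), Slfn5 (0.966) and Samd9l (0.964). Those most like the mean profile of the 10 genes were Ogfr (0.98), Ifi35 (0.977), Tspo (0.976), Psme1 (0.969) and Trafd1 (0.969). Among the 10 themselves the pairwise r ran from 0.482 (H2-D1 with B2m) to 0.972 (Tap2 with Psmb10). The libraries share treatments, so these values are a description across groups and carry no test.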

How the data were processed

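Counts per gene were deposited by the authors as whole numbers for 49315 genes in 48 libraries. The tools and build named in the submitters' processing notes are STAR 2.5.2b, Trimmomatic 0.36, featureCounts of Subread 1.5.2, DESeq2 and GRCm38. The strand setting is not given in the sources used here. The authors' deposited log2 table (variance-stabilised values of 13617 genes) gave only the symbols of the 10 genes. Per the labels, each library came from its own culture, differentiated and treated separately, of 1 of 16 mice.

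After TMM scaling, the raw counts were tested with edgeR 4.0.16 (quasi-likelihood, R 4.3.3, limma 3.58.1) after filterByExpr (minimum count 10, minimum total 15), which left 13986 genes. Each ligand comparison was fitted on the 12 libraries of a genotype, each genotype comparison on the 16 libraries of a treatment and each difference of responses on all 48. P-values were adjusted by Benjamini-Hochberg over all genes tested, with a threshold of 0.05. Fold changes are log2 with their SE, levels are TMM-scaled CPM, and correlations used log2 CPM with a prior count of 2. In simulated counts the fits recovered most of the large known changes. The simulation held few changed genes, no shift of scale between treatments and no effect shared by libraries of a mouse. It therefore does not check the scaling or differences as small as those between genotypes. Alternatives were RLE size factors, library totals only, no filter, DESeq2 1.42.0, sex as a covariate, the replicate block, other sets of libraries and leaving out each mouse. Exact permutation tests were used for subunit shares.

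Within a genotype the same number in the labels was taken to mark the same mouse. Libraries of one number deviated together there (r = 0.113 to 0.42), except LynBKO NT with its ligand libraries (r = -0.21 to 0.186). LynBKO NT 2 and NT 3 have exchanged sex labels and transcripts that follow them, so they are not from the mice of ligand libraries 2 and 3. LynBKO NT 4, with transcripts of both sexes, did not deviate with its ligand libraries either (r = -0.0198 with LPS and -0.04 with R848). Mouse 2, 3 or 4 of LynBKO therefore stands for the libraries of that number. Across genotypes a number marks different mice, but outside LynBKO NT it goes with sex (1 and 2 male, 3 and 4 female). Libraries of one number in a knockout and in WT had r = -0.179 to 0.343. Each pair was above 0.1 in LynKO and WT with LPS (0.107 to 0.153) and R848 (0.15 to 0.313) and in LynBKO and WT with LPS (0.112 to 0.248), where blocked values are given if they change a call.

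The 10 genes and the pathway lists were chosen with earlier results of these data known. All 10 are described. Of each list, up to 4 called genes of largest change per comparison are named, with the transactivators Irf1, Irf2, Irf7, Irf8, Irf9, Stat2, Rfx5, Rfxap and Rfxank (1 further factor of this list is not reported here), the subunits Psmb5, Psmb6 and Psmb7, Lyn, and the 5 genes most like Nlrc5 and like the mean of the 10. Exon lengths and positions came from GENCODE M21, which matched 49056 identifiers. Promoter sequences came from RefSeq (GRCm38.p6).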

Additional observations from a re-analysis of the deposited data

Results flagged for a closer look

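In 5 of 120 sets of 4 libraries, 1 library lay far from the other 3. Chance alone marks about 1 in 20 such groups, or 5%. With LPS, H2-K1 in LynKO mouse 3 was at 2532 CPM, Tap1 in LynAKO mouse 2 was at 386.5 CPM and Psmb10 in LynAKO mouse 2 was at 217 CPM. With R848, Tapbp in LynKO mouse 4 was at 421.9 CPM. With NT, Psmb9 in LynAKO mouse 4 was at 52.56 CPM. No difference between responses of the genotypes passed the test for any of the 10 genes.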

How the results depend on the processing

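Of the results on the 10 genes, the 360 recomputed with RLE size factors kept their direction and side of the threshold, as did 357 with DESeq2, 349 with no filter, 348 with the replicate block, 358 with sex as a covariate and 2356 of the leave-one-out fits, against 310 with library totals only, which reversed 25. With library totals only, LPS against NT was -0.172, -0.245, -0.195 and -0.213 for H2-D1 and -0.088, -0.078, -0.078 and -0.084 for B2m in WT, LynAKO, LynBKO and LynKO. R848 against NT was then -0.069 (H2-K1), -0.343 (H2-D1), -0.343 (B2m) and -0.282 (Tapbp) in WT. In LynAKO it was -0.068 (H2-K1), -0.332 (H2-D1), -0.32 (B2m) and -0.281 (Psmb8). In LynBKO it was -0.039 (H2-K1), -0.324 (H2-D1), -0.254 (B2m), -0.233 (Tapbp), -0.202 (Psmb8) and -0.084 (Nlrc5). In LynKO it was -0.252 (H2-D1), -0.225 (B2m) and -0.042 (Tap1). The members called higher and lower with R848 were then 0 and 5 (WT), 1 and 4 (LynAKO), 2 and 5 (LynBKO) and 2 and 3 (LynKO), 1 was lower with LPS in each knockout, and LynKO against WT had 1 higher with LPS and 3 with R848. Over all genes in WT, library totals only gave 2380 higher and 7930 lower for LPS in place of 4407 and 4202, 2468 and 6809 for R848 in place of 4199 and 3736, and 1061 and 3048 for LPS against R848 in place of 1529 and 1403. For these shifts the scaling itself is the only change.

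The replicate block gave 5 higher and 1 lower with R848 in LynAKO and 3 higher (B2m, Psmb8 and Psmb9) in LynKO against WT with R848. In ligand comparisons it changed no other call than those given beside the results, and exchanging LynBKO NT 2 and NT 3 in the block changed none of 30. With no filter, 1 member (Psmb9) was lower with R848 in LynAKO, Nlrc5 was higher with R848 in LynAKO (adjusted p by edgeR = 0.00247) and LynKO (0.00579), H2-D1 lost its call for LPS against R848 in LynKO (0.124), and with NT 1 was higher in LynAKO, LynBKO and LynKO against WT each, 1 lower in LynKO against WT, 1 lower in LynAKO against LynBKO and 1 higher in LynAKO against LynKO, and 1 higher in LynKO against WT with R848. DESeq2 called 1 lower (NT) and 1 higher (R848) in LynKO against WT, and H2-K1 for LPS against R848 in LynKO (adjusted p by DESeq2 = 0.0238). For LynKO against WT, sex as a covariate gave 1 higher with R848, and 1 model of all 48 libraries gave 1 lower with LPS and 1 higher with R848. Sex also called H2-K1 for LPS against R848 in LynKO (adjusted p by edgeR = 0.0335). The 48-library model removed the R848 calls of Nlrc5 in LynBKO (adjusted p by edgeR = 0.185) and Tap1 in LynKO (0.0557). For LPS against R848 it removed H2-D1 (0.181) and B2m (0.0655) in LynKO and added H2-K1 (0.0334) and H2-D1 (0.0396) in LynAKO. It also added Nlrc5 with R848 in LynAKO (0.0454). Leaving out 1 mouse gave 0 to 1 lower with R848 in LynAKO, 3 to 7 higher and 0 to 1 lower in LynBKO, 0 to 1 lower in LynKO, and in LynKO against WT 0 to 2 lower with NT and 0 to 1 with LPS. The cause was not tested. Shares of the inducible subunits from CPM with no length all moved, since exon length enters them.

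Over all genes, counts called moved by over 1.5 times in several comparisons. LPS against R848 called 2932 in WT (1830 without WT mouse 2), 2463 in LynAKO (1450 to 4048 over the alternatives) and 2219 in LynKO (1274 to 3635). LynKO against WT called 1187 with LPS (663 without WT mouse 1, 747 without LynKO mouse 4) and 829 with R848 (464 to 1753). LynAKO against LynKO called 474 with NT (256 to 797), 153 with LPS (32 to 457) and 120 with R848 (21 to 426), and LynBKO against LynKO 499 with NT (80 to 851) and 241 with R848 (25 to 881). With 4 mice a group the intervals limit what could be missed only gene by gene, and 1 time point and 1 dose of each ligand were measured.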

Other observations

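WT mouse 1 had values more than 1 log2 unit outside the range of the other WT libraries at 7 of 13986 genes, against 1, 2 and 3 genes for WT mice 2, 3 and 4. Of these 7 genes, 1 (H2-DMb1) lies on chromosome 17, which holds the MHC. H2-Aa, a class II chain on that chromosome, was lower too but did not meet this rule. The NT, LPS and R848 libraries of WT mouse 1 were at 3.07, 5.31 and 3.12 CPM for H2-Aa, against 8.59 to 27.9 CPM in the other 9 WT libraries. For Mr1, which presents vitamin metabolites to T cells, they were at 0.744, 0.234 and 0 CPM against 3.62 to 10.9 CPM. These genes were chosen after their values were seen, and no explanation was tested.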
